A study of Mus musculus with 32 samples.

Results

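The genes described here encode the enzymes that write N6-methyladenosine (m6A) into messenger RNA, taken by symbol from the deposited expression tables. They are Mettl3, Mettl14, Wtap, Virma, Zc3h13, Cbll1, Rbm15 and Rbm15b, whose products form the m6A methyltransferase complex, and Mettl16, a separate m6A methyltransferase. All 9 were found among the 55573 genes of the count table. RNA-seq libraries were made from hippocampal neurons of newborn mice, pooled by litter and grown on a porous membrane until day 15 in vitro. Soma were scraped from the top and neurites from the bottom of the membrane, and the soma fraction can hold neurites that did not cross the pores. WT neurons came from C57BL/6 mice and Mettl3 KO neurons from Mettl3Flox/Flox mice. Neurons of both genotypes received an AAV on day 7, at 50000 particles per cell, that expresses Cre and dTomato from the neuronal hSyn promoter, so the WT cultures carry Cre too and glia are not targeted by the promoter. All cultures were silenced for 16 h with D-AP5 (50 µM) and tetrodotoxin (1 µM). Ctrl cultures were left so, and KCl cultures were then depolarized with 55 mM KCl for 2 h. The 8 groups of genotype, compartment and treatment hold 2 libraries each, from different litters, and genotype cannot be told apart from strain and litter.

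METTL3 is the catalytic subunit and transfers a methyl group from S-adenosylmethionine to adenosine. METTL14 holds the RNA, and WTAP, VIRMA, ZC3H13 and HAKAI, the product of Cbll1, form the regulatory part that keeps the enzyme in the nucleus and on its targets, to which RBM15 and RBM15B recruit it. METTL16 methylates U6 snRNA and hairpins of Mat2a, the mRNA of the enzyme that makes S-adenosylmethionine. The complex acts in the nucleus, while mRNAs that encode it can be found in any part of a neuron.

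DART-seq sites were called in the mRNAs of some of the members themselves. In this assay, APOBEC1 fused to a YTH domain edits the C that follows a methylated A, and the authors deposited the C-to-U fraction at each called site, averaged over the WT libraries. Of the 18231 deposited sites 12 lie in members, in the RNAs of Mettl3, Mettl16, Wtap, Zc3h13 and Rbm15b, and 4 members (Mettl14, Virma, Cbll1 and Rbm15) are not in the list. The 5 of 9 listed stand beside 23.0% of the 24180 genes with at least 10 counts on average in WT soma Ctrl, and calling a site also needed coverage, so abundant RNAs are listed more readily. The most edited site of each of the 5 RNAs and the other sites of Mettl3, the gene deleted in the KO, are shown as 21 bases of GRCm38.p6 from RefSeq on the strand of the transcript, with capitals on the A or G, the A read as methylated and the edited C.
Mettl3 exon 8, coding, chr14:52296727-52296747, minus strand: tgggtgaaGACtaatcagctg
Mettl3 exon 10, coding, chr14:52296155-52296175, minus strand: cagtcataAACcagatgaaat
Mettl3 exon 10, coding, chr14:52296125-52296145, minus strand: gattgagaGACtgtcccctgg
Mettl16 exon 4, coding, chr11:74787666-74787686, plus strand: agcagaatAACctatctgatc
Wtap exon 6 of Wtap-204, 3′ UTR, chr17:12974689-12974709, minus strand: atgctaagAACcaactaatag
Zc3h13 exon 12, coding, chr14:75328049-75328069, plus strand: agacaaggGACgcgatgaccg
Rbm15b exon 1, coding, chr9:106885315-106885335, minus strand: ggggactgGACcagcctcagt

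The sites differed in how strongly they were edited. The highest fractions were 0.108 at the last Mettl3 site and 0.109 at the Zc3h13 site in exon 12, and these 2 sites exceeded 92.2% and 92.5% of all deposited sites. The other Mettl3 sites had fractions of 0.022 and 0.0111, below the median of 0.0354 over all sites. The sites shown of Mettl16, Wtap and Rbm15b had 0.049, 0.0508 and 0.0653. All 12 end in GAC or AAC, which the site calling required of every deposited site. The study names DRACH as the m6A consensus, in which A, C or U follows the C. The Zc3h13 site in exon 12 reads GGACG and lies outside it, as do a further Zc3h13 site (GAACG) and a Wtap site (AAACG). GAC was the motif at 5 of the 12, against 53.7% of all sites.

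Wtap differed from the others in where its sites lie. Its 3 sites, with fractions of 0.0508, 0.0501 and 0.0336, are in no exon of Wtap-203, the transcript with the longest coding sequence (1188 bases). They lie in the last exon of Wtap-204, whose coding sequence is 453 bases, and 2 of the 9 annotated Wtap transcripts hold them. The 9 sites of the other 4 RNAs are all in coding sequence. The Mettl3 sites are in exons 8 and 10 of the 11 exons of Mettl3-201, downstream of the deleted exon 4 at chr14:52298640-52298815.

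**Figure D1:**
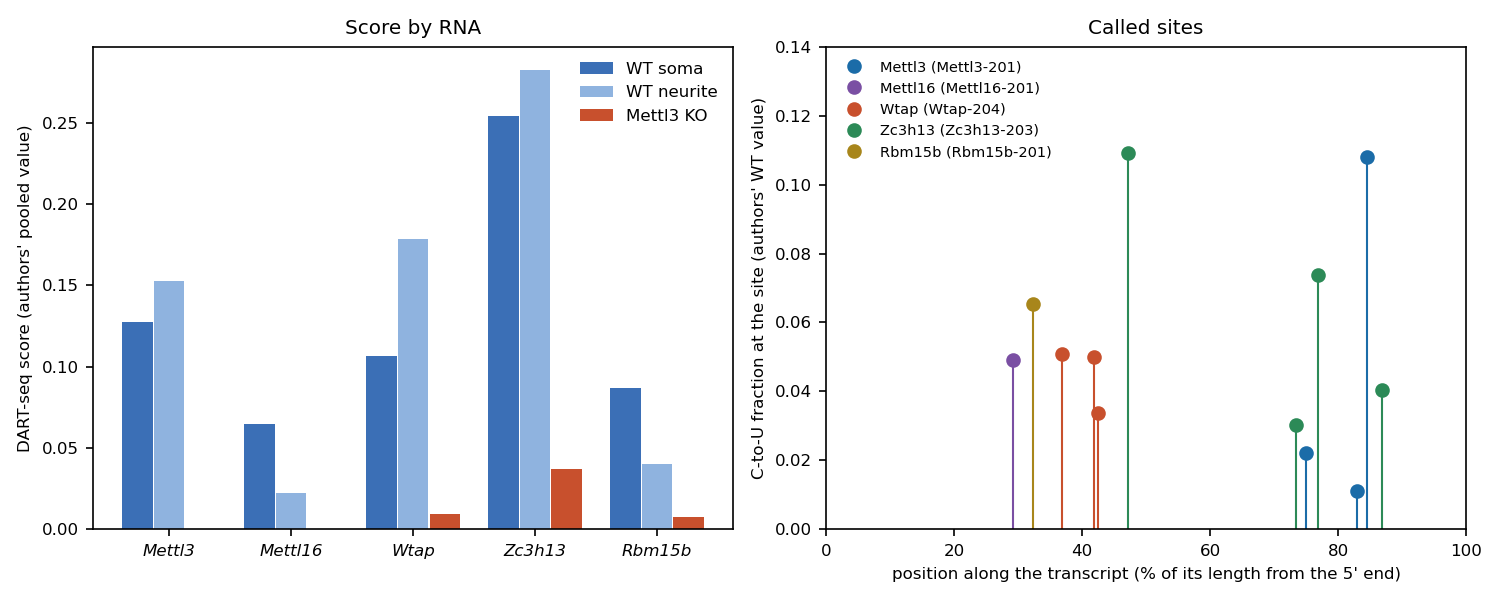
Left, the authors' pooled DART-seq score of each RNA in WT soma, WT neurites and Mettl3 KO, and right, the C-to-U fraction of each called site against its place along the transcript, from 0 at the 5′ end to 100% at the 3′ end. Zc3h13 has the highest score in each of the 3. Mettl3, Wtap and Zc3h13 score higher in neurites than in soma, and Mettl16 and Rbm15b lower. Only the last Mettl3 site and 1 Zc3h13 site pass a fraction of 0.1.

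The authors' score is described as the sum of the average editing at the called sites of an RNA, though it is not exactly the sum of the deposited site fractions. It was 0.266 for Zc3h13 in WT, higher than in 85.7% of the 5643 listed RNAs, 0.136 for Mettl3, 0.135 for Wtap, 0.0653 for Rbm15b and 0.0545 for Mettl16, around a median of 0.103 over all RNAs. In Mettl3 KO the scores were 0.0373, 0, 0.00908, 0.00761 and 0. Sites were called as higher in WT than in KO libraries, so this drop was fixed by the calling and 99.8% of all listed RNAs show it. Between WT compartments, the score of Wtap was 0.107 in soma and 0.178 in neurites, and that of Zc3h13 was 0.254 and 0.283. Mettl3 scored 0.128 in soma and 0.153 in neurites. Mettl16 went the other way, with 0.0647 in soma and 0.0222 in neurites, as did Rbm15b with 0.0871 and 0.0402. Of all listed RNAs 68.8% scored higher in neurites. The deposited scores are pooled over libraries, so they have no error and no test was made. The study describes its soma and neurite averages of editing as holding both Ctrl and KCl samples.

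The 16 RNA-seq libraries held 33789183 to 71394235 counts. Levels are given as CPM, which are counts scaled to the library size with TMM factors, and each member had at least 122 counts in every library. The summed level of 10 neuron markers was 1159 to 6438 CPM, that of 10 astrocyte markers 1154 to 19319, of 7 microglia markers 10.4 to 236, of 7 oligodendrocyte lineage markers 58.6 to 7253, and of 12 markers of fibroblasts and vessels 17.0 to 818. No marker was at 0 in any group. Both libraries of the KCl-treated Mettl3 KO replicate 1 stood apart, with 1966 (soma) and 1159 CPM (neurite) of neuron markers, 9888 and 19319 of astrocyte markers and 3627 and 7253 of oligodendrocyte lineage markers, against at most 191 of the last in every other library. The Ctrl neurite library of Mettl3 KO replicate 1 had 6719 CPM of astrocyte markers against at most 3129 in WT. In such samples fewer cells of a type and less RNA per cell cannot be told apart. In soma the excess was not confined to replicate 1. The astrocyte sums were 2530 and 1937 in Mettl3 KO soma Ctrl against 1154 and 1175 in WT. The sum was 2570 in Mettl3 KO soma KCl replicate 2 against 1651 and 1667 in WT. Soma values given without replicate 1 therefore still carry a part of it. In neurite Ctrl, Mettl3 KO replicate 2 had an astrocyte sum of 2921 against 3129 and 2043 in WT. In neurite KCl it had 2812 against 2361 and 2807 in WT. Other lists of this replicate also differed from WT in neurites. Neuron markers were 4152 in neurite Ctrl against 5233 and 6124 in WT, and 6088 in neurite KCl against 6135 and 6438. Microglia markers were 31.3 against 17.1 and 20.0, and 34.7 against 26.9 and 18.6. Oligodendrocyte lineage markers were 133 against 116 and 125, and 96.1 against 86.8 and 78.4. Those of fibroblasts and vessels were lower, at 38.8 against 47.6 and 103, and 33.1 against 66.4 and 38.4. The part of the other cells in the members' values was not tested.

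**Figure D2:**
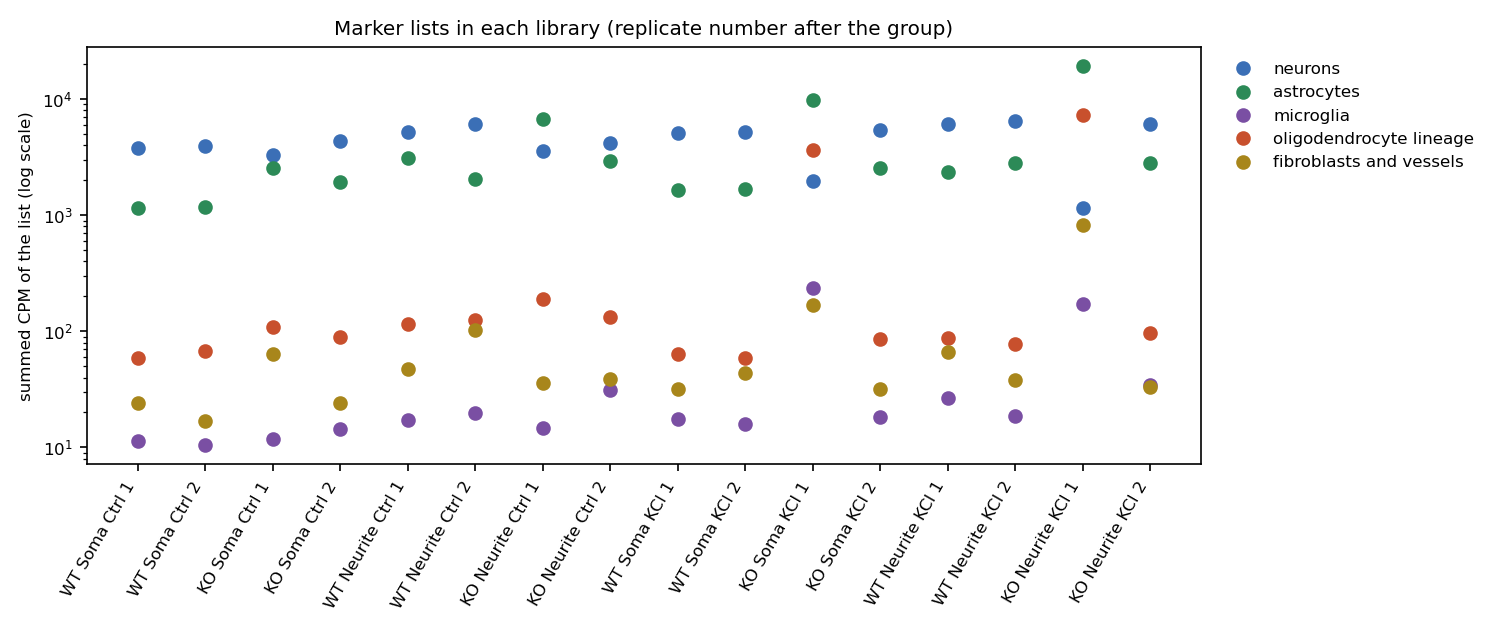
Summed CPM of 5 marker lists (log axis) in each library, grouped by genotype, compartment and treatment. The 2 libraries of KCl-treated Mettl3 KO replicate 1 have the lowest neuron sums, 1966 and 1159 CPM, and the highest sums of the other lists.

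In the WT cultures the members were mRNAs of middle abundance. Per kilobase of exon, in TMM-scaled FPKM, Zc3h13 had the highest level in WT soma Ctrl, 9.53 ± 0.548 (SD, n = 2), followed by Wtap with 6.64 ± 0.102, Cbll1 with 6.15 ± 0.291 and Virma with 5.87 ± 0.0277. The core pair was lower by this length, with 3.24 ± 0.08 for Mettl3 and 1.97 ± 0.111 for Mettl14. Rbm15b had 2.41 ± 0.098, Mettl16 2.35 ± 0.0827 and Rbm15 1.94 ± 0.0881. The order spans 4.91-fold, and the libraries of Rbm15b and Mettl16, and of Mettl14 and Rbm15, overlapped. The members lay between the 52.1 and the 78.4 percentile of 24180 genes ranked by FPKM in these libraries. In WT neurite Ctrl Zc3h13 was again first, with 9.26 ± 0.0935 FPKM, and Rbm15 last, with 1.52 ± 0.297, while Rbm15b, at 3.71 ± 0.331, stood above Mettl3, at 2.41 ± 0.061. The exon length used sums all annotated exons of a gene (13817 bases for Mettl16, 4007 for Cbll1). It therefore understates the level of genes whose long forms are little used. The sum is 5076 bases for Mettl3 and 6248 for Wtap, whose longest annotated transcripts have 2159 and 3187. For Zc3h13 these lengths are 6283 and 6151, so the order of the members depends on the length used.

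**Figure D3:**
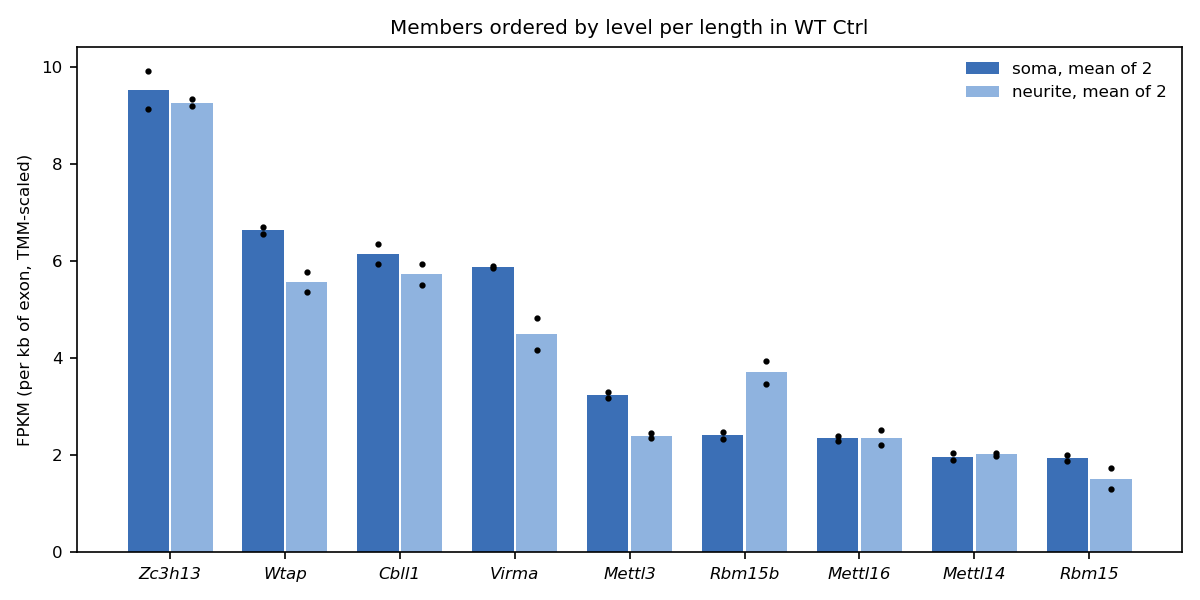
Mean FPKM of each member in WT soma and neurite Ctrl (bars) with the 2 libraries of each group (points), ordered by the soma mean. Zc3h13 is highest in both, and Rbm15b stands higher in neurites (3.71) than in soma (2.41).

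Mettl3, the targeted gene, was lower in every Mettl3 KO group than in its WT group, but not absent. In soma Ctrl it was at 16.7 and 16.1 CPM in WT and 8.93 and 11 in Mettl3 KO. In neurite Ctrl it was at 12 and 12.4 CPM in WT and 3.91 and 6.76 in Mettl3 KO. With KCl it was at 15.5 and 13.5 in WT soma and 9.23 and 6.18 in Mettl3 KO soma, and at 11.1 and 9.04 against 8.23 and 3.99 in neurites. The 2 KO libraries lay below both WT libraries in each of the 4 comparisons. The log2 fold changes were −0.73 ± 0.385 (SE) in soma Ctrl, −1.19 ± 0.394 in neurite Ctrl, −0.91 ± 0.381 in soma KCl and −0.73 ± 0.379 in neurite KCl. None passed the threshold in edgeR fitted to all 16 libraries, with adjusted p of 0.624, 0.423, 0.305 and 0.259.

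The count of Mettl3 reads the deletion only in part. Exon 4 holds 176 coding bases, which is not a multiple of 3, and makes up 3.47% of the 5076 exonic bases over which reads were counted at chr14:52294841-52305128. A transcript without that exon is still counted, and so is Mettl3 RNA of glia. Tox4, on the opposite strand, shares 933 of these bases, and since counting did not use strand, reads over them were assigned to neither gene. An alternative chosen after seeing the data left out both Mettl3 KO replicates 1. This leaves 1 library in each KO group and assumes that the library varies like the WT libraries. Mettl3 then fell by 0.59 (soma Ctrl), 0.84 (neurite Ctrl), 1.22 (soma KCl) and 1.35 (neurite KCl) on the log2 scale. In these fits, whose spread is that of the remaining libraries, the rule called 7078, 1325, 1752 and 2299 genes in all, against 44, 41, 51 and 99 with replicates 1 included.

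No member passed an adjusted p of 0.05 with a 1.5-fold change between Mettl3 KO and WT in any of the 4 comparisons. The rule called 0.185% of genes in soma Ctrl, 0.188% in neurite Ctrl, 0.212% in soma KCl and 0.44% in neurite KCl. DESeq2 called none in the first 3 and Cbll1 in neurite KCl, where it called 11.5% of all genes. At an unadjusted p of 0.05 edgeR gave 1 member in soma Ctrl (8.97% of all genes), 1 in neurite Ctrl (7.47%), 1 in soma KCl (14.5%) and 2 in neurite KCl (24.1%). They were Mettl16, Mettl3, Mettl3 again, and Cbll1 with Wtap. The libraries of the genotypes did not overlap for 3 members in soma Ctrl (48.5% of all genes), 5 in neurite Ctrl (49.3%), 4 in soma KCl (47.9%) and 5 in neurite KCl (50.0%). The coefficient of variation between replicates was 0.371 to 0.382 in these fits and 0.149 to 0.151 among the WT libraries alone.

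**Figure D4:**
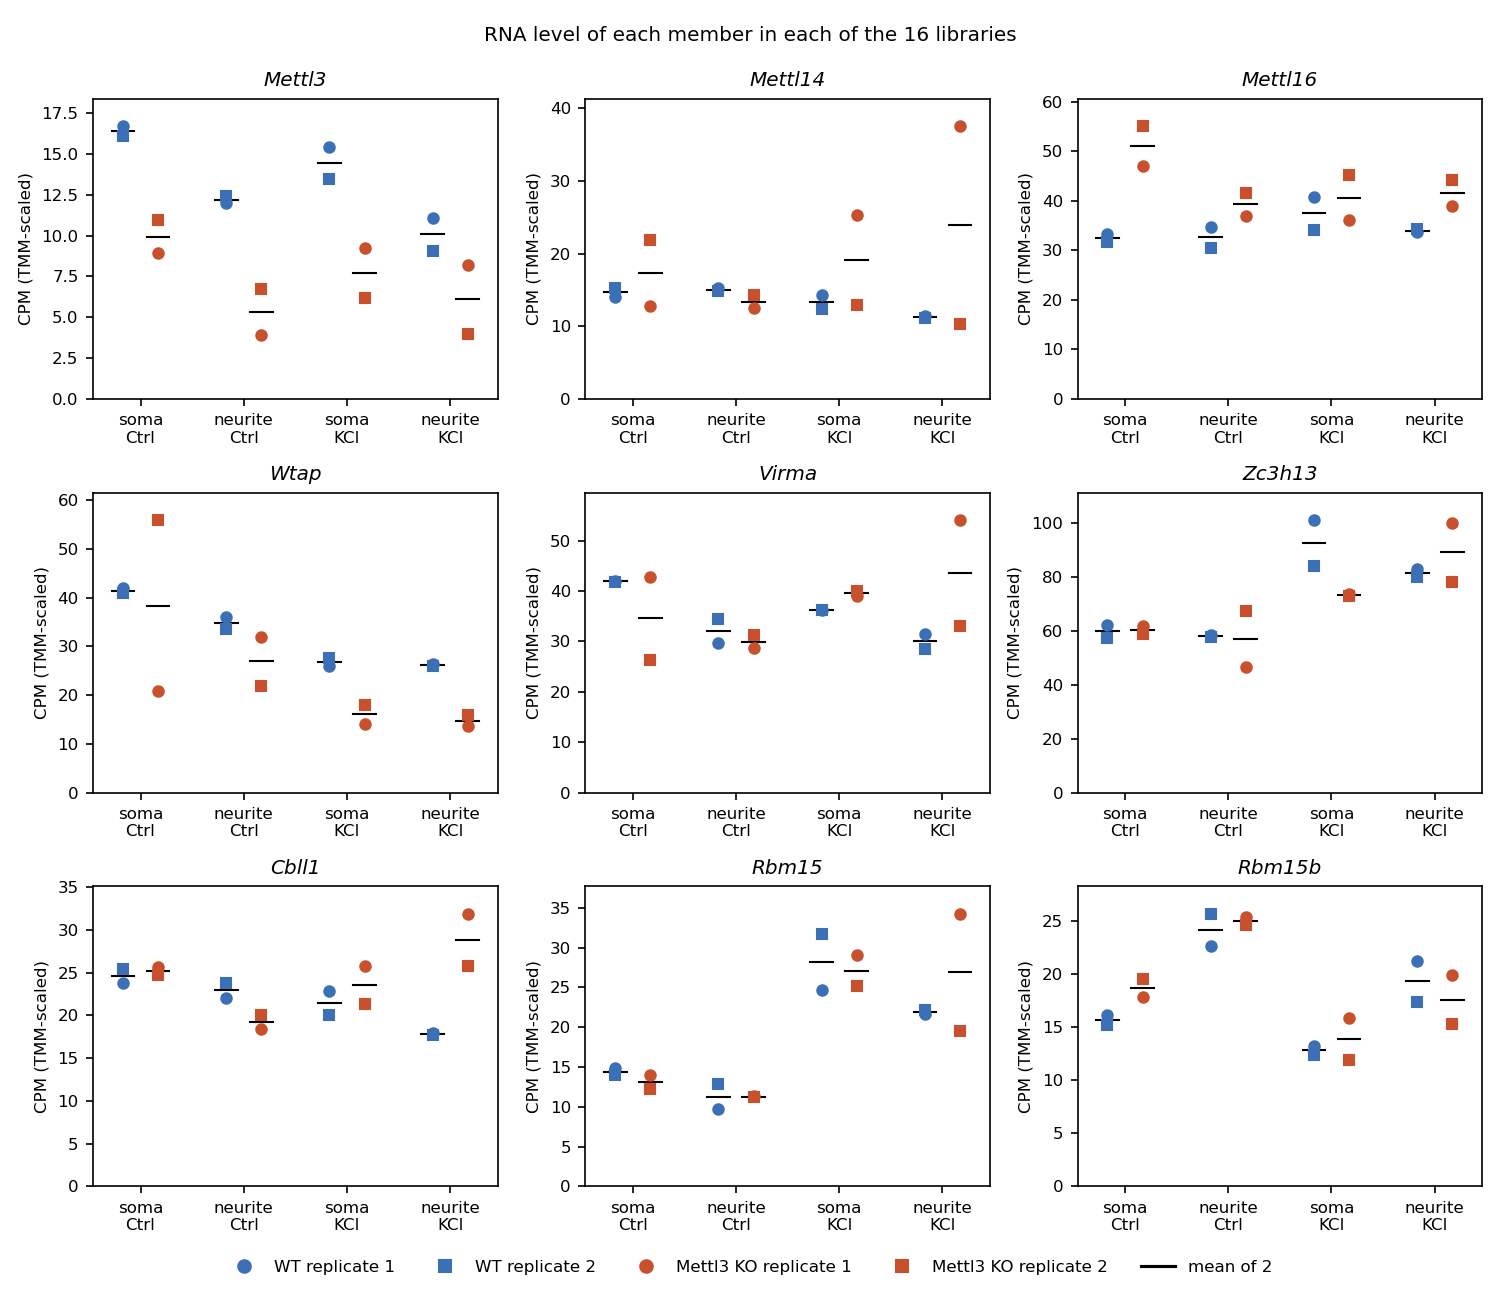
CPM of each member in each library (points, circles for replicate 1 and squares for replicate 2) with the mean of 2 (lines), for WT and Mettl3 KO in each compartment and treatment. Mettl3 is lower in KO in all 4, Rbm15 and Zc3h13 are higher with KCl in WT, and the highest Mettl14 values, 25.3 and 37.5 CPM, are those of KCl-treated Mettl3 KO replicate 1.

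Of the catalytic partners, Mettl14 did not follow Mettl3. It was at 14.1 and 15.2 CPM in WT soma Ctrl and 12.8 and 21.8 in Mettl3 KO, and at 15.2 and 14.8 against 12.4 and 14.3 in neurites, where both KO libraries were lower. With KCl it was at 14.4 and 12.3 in WT soma against 25.3 and 13.0, and at 11.4 and 11.1 in WT neurites against 37.5 and 10.2. The high values are those of replicate 1, the pair of libraries with the high glial markers. The log2 fold changes of 0.51 ± 0.495 in soma KCl and 1.08 ± 0.5 in neurite KCl (edgeR adjusted p of 0.661 and 0.212) became −0.04 and −0.14 without them.

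Mettl16 was higher in Mettl3 KO in 3 of the 4 comparisons by every library. Both KO libraries were higher for 23.5% to 25.0% of all genes in each of these. The 4 comparisons share litters and inserts, so they do not repeat each other independently. In soma Ctrl it was at 33.2 and 31.6 CPM in WT and 47.1 and 55.1 in Mettl3 KO, a log2 fold change of 0.65 ± 0.213 with an edgeR adjusted p of 0.357. In neurite Ctrl the values were 34.8 and 30.5 in WT and 36.8 and 41.7 in Mettl3 KO (0.27 ± 0.207), and in neurite KCl 33.7 and 34.2 against 38.9 and 44.2 (0.29 ± 0.212). In soma KCl the genotypes overlapped, with 40.8 and 34.1 in WT and 36.1 and 45.2 in Mettl3 KO. Without both Mettl3 KO replicates 1 the differences in neurite Ctrl and neurite KCl were each 0.37. The soma Ctrl difference was 0.62 to 0.75 over the alternatives, those that left out 1 library aside. Astrocyte sums of both Mettl3 KO soma Ctrl libraries were above those of WT, and their part in this difference was not tested.

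Its target Mat2a was higher in both Mettl3 KO libraries in all 4 comparisons, without passing the test in the fit to all 16 libraries. In each comparison 23.5% to 25.0% of all genes were higher in both, and the comparisons share litters and inserts. It was at 116 and 118 CPM in WT soma Ctrl and 137 and 199 in Mettl3 KO, and at 82.5 and 71 against 103 and 117 in neurite Ctrl. With KCl it was at 318 and 324 against 405 and 575 in soma, and at 165 and 208 against 383 and 401 in neurites. The difference in neurite KCl was 1.06 ± 0.263 on the log2 scale, with an edgeR adjusted p of 0.0934. It was 1.09 when both KCl libraries of Mettl3 KO replicate 1 were left out. Leaving out both Mettl3 KO replicates 1 left 1 library in each KO group. The differences were then 0.76 in soma Ctrl, 0.63 in neurite Ctrl, 0.85 in soma KCl and 1.09 in neurite KCl.

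Among the regulatory subunits, Wtap was lower in both Mettl3 KO libraries in 3 of the 4 comparisons, which share litters and inserts. Both KO libraries were lower for 24.2% to 25.8% of all genes in each of the 3. In neurite Ctrl it was at 36.0 and 33.6 CPM in WT and 31.9 and 21.9 in Mettl3 KO. With KCl it was at 25.9 and 27.6 in WT soma against 14.1 and 17.9, and at 26.3 and 25.9 in WT neurites against 13.6 and 16.0. The KCl differences were −0.74 ± 0.373 in soma and −0.83 ± 0.373 in neurites, with edgeR adjusted p of 0.383 and 0.2. Without both Mettl3 KO replicates 1 they were −0.57 and −0.72. In soma Ctrl the 2 KO libraries lay on either side of WT, at 20.8 and 56.0 against 41.9 and 41.0. Reads that map to several places were counted, and the near-copy Gm14292, which matches 21.9% of the Wtap transcript, had 3015 counts over all libraries against 24192 for Wtap.

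Virma, Zc3h13 and Cbll1 varied between comparisons. Virma was at 42.1 and 41.8 CPM in WT soma Ctrl against 42.9 and 26.3 in Mettl3 KO. With KCl both Mettl3 KO libraries were higher, at 39.0 and 40.1 against 36.2 and 36.3 in soma, and at 54.1 and 33.0 against 31.5 and 28.5 in neurites. The value of 54.1 is that of replicate 1, which has the high glial markers. Zc3h13 was at 101 and 84.3 CPM in WT soma KCl and 73.7 and 72.9 in Mettl3 KO, and overlapped between genotypes in the other 3 comparisons. Cbll1 was at 22.1 and 23.8 in WT neurite Ctrl and 18.4 and 20.0 in Mettl3 KO, and at 17.9 and 17.8 against 31.9 and 25.8 in neurite KCl. The Ctrl difference was −0.25 ± 0.218, and −0.18 without both Mettl3 KO replicates 1. The KCl difference was 0.69 ± 0.211 with an edgeR adjusted p of 0.122, and DESeq2 gave 0.66 with an adjusted p of 0.00537. Without both Mettl3 KO replicates 1 it was 0.52 in edgeR, below 1.5-fold. The antisense gene Gm29542 shares 704 of the exonic bases of Cbll1, over which reads were assigned to neither gene.

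The libraries of the genotypes overlapped for the recruiters, except that both Mettl3 KO libraries of Rbm15b were higher in soma Ctrl. Rbm15 was at 14.9 and 13.9 CPM in WT soma Ctrl against 13.9 and 12.2 in Mettl3 KO, and at 9.71 and 12.8 against 11.3 and 11.2 in neurites. Rbm15b was at 16.1 and 15.2 in WT soma Ctrl against 17.8 and 19.5, and at 22.6 and 25.7 against 25.4 and 24.7 in neurites. With KCl the genotypes overlapped for both genes in both compartments.

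In WT neurons, Rbm15b was the member that was higher in neurites, and most of the others were lower. With the 8 WT libraries fitted alone, 1 of the 9 members, Rbm15b, passed 1.5-fold and an adjusted p of 0.05 in KCl (9.6% of all genes) and none in Ctrl (13.6% of all genes). By the adjusted p alone, 3 members passed in Ctrl (19.5% of all genes) and 1 in KCl (13.4%). At an unadjusted p of 0.05 these numbers were 5 (34.5%) and 2 (28.7%), and DESeq2 called none at 1.5-fold in either. Both neurite libraries lay below both soma libraries for 5 members in Ctrl and 6 in KCl, against 32.0% and 29.7% of all genes.

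Rbm15b was at 16.1 and 15.2 CPM in soma and 22.6 and 25.7 in neurites in Ctrl, and at 13.2 and 12.4 in soma and 21.3 and 17.4 in neurites in KCl. The log2 fold changes were 0.53 ± 0.146 and 0.61 ± 0.148, with edgeR adjusted p of 0.03 and 0.0232. The Ctrl difference no longer passed with the insert as a block (0.0501) or without WT soma replicate 1 (0.0931), soma replicate 2 (0.152) or neurite replicate 2 (0.142), and the KCl difference did not pass without neurite replicate 1 (0.196). The paralog Rbm15 went the other way, from 14.9 and 13.9 CPM in soma to 9.71 and 12.8 in neurites in Ctrl (−0.45 ± 0.175, edgeR adjusted p of 0.0953). Rbm15b, whose transcript Rbm15b-201 has 1 exon, shares 75 exonic bases with Dcaf1 and 14 with Manf.

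Mettl3 and Virma were lower in neurites of WT Ctrl. Mettl3 fell by 0.52 ± 0.152 on the log2 scale (edgeR adjusted p of 0.0371), and was 0.50 ± 0.154 below soma in KCl, where its adjusted p was 0.0561. Virma was at 29.7 and 34.4 CPM in neurites against 42.1 and 41.8 in soma in Ctrl, a fall of 0.48 ± 0.121 with an adjusted p of 0.0201, and differed by −0.26 ± 0.122 in KCl, with an adjusted p of 0.194. With the insert as a block the adjusted p of Mettl3 in Ctrl was 0.0505, and it was 0.103 to 0.272 when any 1 of the 4 libraries was left out. Virma passed with the block (0.0425) and without neurite replicate 2 (0.0397), and not without soma replicate 1 (0.186), soma replicate 2 (0.197) or neurite replicate 1 (0.1). Wtap was 0.35 ± 0.113 lower in Ctrl (adjusted p of 0.0557) and differed by −0.02 ± 0.114 in KCl. Mettl14, Mettl16, Zc3h13 and Cbll1 differed by between −0.06 and −0.25 and did not pass. When all 16 libraries were fitted together no member and no gene passed in either treatment, and the adjusted p of Rbm15b became 0.62 in Ctrl and 0.902 in KCl. Astrocyte markers summed to 1154 and 1175 CPM in the WT soma Ctrl libraries and 3129 and 2043 in the neurite libraries. Other lists moved more, with a median log2 fold change of 1.34 over the 11 tested markers of fibroblasts and vessels (7 called higher) and 1.014 over 6 of microglia (1 called higher), beside 0.64 over the 10 of astrocytes (5 called higher). The part of these cells in the differences was not tested.

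KCl changed 3 members in WT soma and 2 in WT neurites. Rbm15 and Zc3h13 rose in both compartments, and Wtap fell in soma. With an adjusted p of 0.05 and 2-fold, Rbm15 alone passed, in neurites (5.03% of all genes), and no member passed in soma (6.7%). By the adjusted p alone, 3 members passed in soma (13.2% of all genes) and 2 in neurites (8.83%), and at an unadjusted p of 0.05 there were 6 (26.1%) and 5 (22.8%). DESeq2 called none at 2-fold in either compartment.

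Rbm15 was at 14.9 and 13.9 CPM in WT soma Ctrl and 24.6 and 31.7 with KCl, and at 9.71 and 12.8 against 21.7 and 22.2 in neurites. It rose by 0.89 ± 0.171 on the log2 scale in soma and by 1.00 ± 0.177 in neurites, with edgeR adjusted p of 0.0062 and 0.006. These became 0.0532 in soma without Ctrl replicate 2 and 0.0503 in neurites without KCl replicate 2. In Mettl3 KO the values were 13.9 and 12.2 in soma Ctrl and 29.1 and 25.1 with KCl, and 11.3 and 11.2 in neurite Ctrl and 34.2 and 19.5 with KCl, so that both genotypes had higher values with KCl in each compartment. Rbm15b was 0.37 ± 0.148 lower in soma and 0.28 ± 0.146 lower in neurites with KCl, neither passing.

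Zc3h13 was at 62.3 and 57.4 CPM in WT soma Ctrl and 101 and 84.3 with KCl, and at 58.6 and 57.8 against 83.1 and 80.2 in neurites. It rose by 0.55 ± 0.117 in soma (edgeR adjusted p of 0.0106) and by 0.53 ± 0.114 in neurites (0.0183). The adjusted p was 0.0912 in soma without Ctrl replicate 2, and 0.0659 to 0.0959 in neurites without any 1 of the 4 libraries. Wtap was at 41.9 and 41.0 CPM in WT soma Ctrl and 25.9 and 27.6 with KCl. It fell by 0.71 ± 0.115 in soma, with an adjusted p of 0.00247 (0.0668 without Ctrl replicate 1), and differed by −0.38 ± 0.113 in neurites, with an adjusted p of 0.0678. Mettl3, Mettl14, Virma and Cbll1 had log2 differences between −0.06 and −0.38 in the 2 compartments, and Mettl16 of 0.13 and 0.09, and none of these passed. The median over the members was −0.26 in soma and −0.24 in neurites, beside 0.01 and 0.01 over all genes. Fitted with all 16 libraries, the adjusted p of Wtap in soma was 0.787, and those of Rbm15 were 0.188 in soma and 0.226 in neurites. Among the alternatives in edgeR and DESeq2 that kept every compared library, the adjusted p of Zc3h13 reached 0.34 in soma and 0.665 in neurites.

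**Figure D5:**
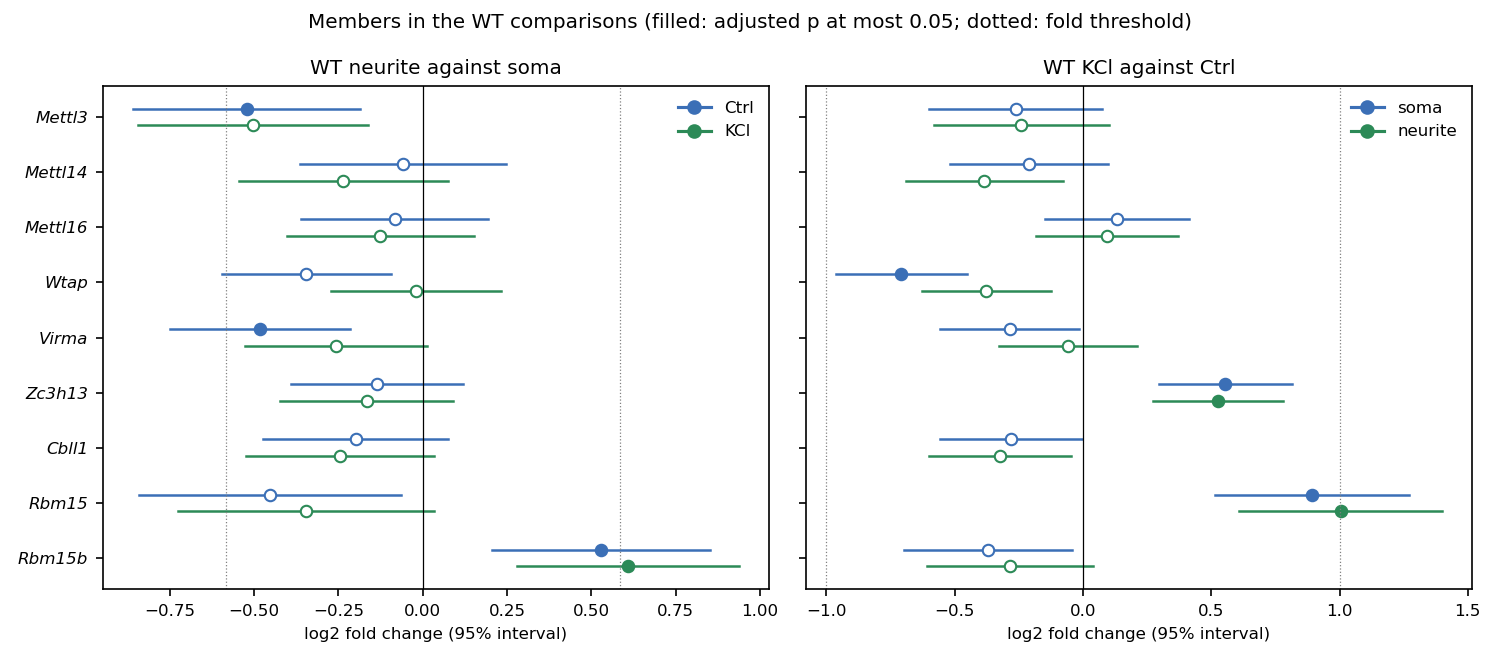
Log2 fold change of each member with its 95% interval in WT neurites against soma (left, Ctrl and KCl) and in WT KCl against Ctrl (right, soma and neurites). Rbm15b is the only member above 0 on the left, and on the right Rbm15 and Zc3h13 lie above 0 in both compartments, as does Mettl16 by 0.13 and 0.09 without passing, and Wtap in soma lies furthest below it.

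Whether the loss of Mettl3 shifts members between soma and neurites was tested as the difference of neurite enrichment between genotypes, with each soma library paired with the neurite library of its insert. None of the 9 members passed an unadjusted p of 0.05 with 1.5-fold in Ctrl (4.19% of all genes) or in KCl (1.82% of all genes), and DESeq2 called none. By the adjusted p no gene at all passed in these edgeR fits, in Ctrl or in KCl. Mettl3 itself differed by −0.52 ± 0.344 in Ctrl and 0.13 ± 0.342 in KCl. Without the inserts of KCl-treated Mettl3 KO replicate 1 the latter was −0.13.

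Of 15 other genes of m6A biology, none passed between Mettl3 KO and WT in any comparison fitted to all 16 libraries. They were readers, demethylases, other RNA m6A enzymes and enzymes of S-adenosylmethionine. Between WT neurites and soma 1 was higher and 1 lower in both treatments, where 13.6% of all genes were called in Ctrl and 9.6% in KCl. Pcif1, which writes m6Am next to the cap, was at 53.8 and 54.7 CPM in soma and 114 and 134 in neurites in Ctrl, a log2 fold change of 1.10 ± 0.143 with an edgeR adjusted p of 0.000942, and 1.03 ± 0.143 in KCl. Mat2a was 0.70 ± 0.129 lower in neurites in Ctrl (adjusted p of 0.00529) and 0.77 ± 0.128 lower in KCl (0.00423). With KCl, 2 of the 15 rose in WT soma and in WT neurites, where 6.7% and 5.03% of all genes were called in either direction. Mat2a rose by 1.38 ± 0.129 in soma and 1.32 ± 0.13 in neurites, with adjusted p of 6.17e-05 and 0.000158. Ythdc1, the nuclear m6A reader, was at 33.2 and 28.3 CPM in soma Ctrl and 88.1 and 89.4 with KCl, and rose by 1.45 ± 0.131 in soma and 1.65 ± 0.132 in neurites (4.83e-05 and 3.45e-05). Trmt112, the partner of Mettl5, was the sole gene of the 15 to pass the unadjusted rule for neurite enrichment, in Ctrl at 1.25 ± 0.539. That rule called 4.19% of all genes in Ctrl, and no gene passed there by the adjusted p. In the soma Ctrl library of Mettl3 KO replicate 2 Trmt112 stood at 5.85 CPM against 21.5 to 23.0 in the other soma Ctrl libraries.

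Over the 16 libraries and 15169 genes with mean counts of 100 or more, the genes whose log2 CPM was most like that of Mettl3 were Manba (Pearson r of 0.949), Zfp125 (0.929), Atp11b (0.923), Cul5 (0.922) and Prkaa1 (0.91). No member was among them. Wtap was the nearest, with 0.507, and Mettl16 the farthest, with −0.406, while Mettl14 had 0.145 and Rbm15b −0.207. The 16 points share genotype, treatment and compartment, so these values are a description.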

How the data were processed

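The authors trimmed the RNA-seq reads, aligned them to mm10 with STAR 2.7.7a and counted fragments with featureCounts 2.0.1 over the exons of Ensembl release 97, multi-mapping reads included and strand not used, and deposited raw counts per gene. The deposited DART-seq score of an RNA and the C-to-U fraction of a site are the authors' means over libraries, with sites called against the Mettl3 KO libraries within RAC motifs. Columns of the authors' own comparisons were not used, and symbols came from their tables. Depth was 33789183 to 71394235 counts per library.

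Counts were fitted in edgeR 4.0.16 (R 4.3.3; TMM, quasi-likelihood F-test, Benjamini-Hochberg adjustment over all genes tested) to the 16 libraries for Mettl3 KO against WT, to the 8 WT libraries for WT neurite against soma and for KCl against Ctrl, with 1 term per group, and with 1 term per insert for the difference of neurite enrichment. Genes needed a mean count of 10 over the libraries compared, and mitochondrially encoded genes were left out. FPKM is TMM-scaled CPM per kilobase of annotated exon. Named genes were the 9 members, Mat2a, at most 3 called genes per comparison of a list of 15 m6A genes, and the 5 genes most like Mettl3. Members and lists were chosen with earlier results of these data known. Soma and neurite libraries with 1 number come from 1 insert, and Ctrl and KCl cultures from 1 litter, per the study's methods. Their replicate differences correlated at −0.141 to 0.901 (inserts) and −0.0855 to 0.187 (litters), over 4 pairs each. DESeq2 1.42.0, RLE scaling, other filters, other sets of libraries and a replicate block were the alternatives, and the model was tested on simulated data first. Exons came from GENCODE M21, sequences from the RefSeq genome (GRCm38.p6, pysam 0.24.0) and near-copies from blastn 2.17.0.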

Additional observations from a re-analysis of the deposited data

Results flagged for a closer look

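Cbll1 went in opposite directions between Mettl3 KO and WT neurites without and with KCl. In Ctrl both Mettl3 KO libraries lay below both WT libraries, with a log2 fold change of −0.25 ± 0.218, and in KCl both lay above, with 0.69 ± 0.211. The difference between the 2 was not tested. The KCl value includes the library of Mettl3 KO replicate 1, which has the high glial markers, and its value at replicate 2 was 25.8 CPM against 17.9 and 17.8 in WT.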

How the results depend on the processing

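With 2 libraries per group, calls on single members depended on the libraries used. Between genotypes, the fits to all 16 libraries tested 23750 genes in soma Ctrl, 21814 in neurite Ctrl, 24038 in soma KCl and 22488 in neurite KCl. Fits that left 1 library in a group took their spread from the remaining libraries. Member counts from such fits rose where the counts over all genes, given below, rose too. They are therefore not a result about the members. Between Mettl3 KO and WT no member passed, except 1 under DESeq2 in neurite KCl. Leaving out 1 library gave 0 to 1 in soma Ctrl and 0 to 3 in neurite KCl, and leaving out both Mettl3 KO replicates 1 (chosen after seeing the data) gave 3, 2, 1 and 2 members in soma Ctrl, neurite Ctrl, soma KCl and neurite KCl. Over all genes the counts of 44, 41, 51 and 99 became 7078, 1325, 1752 and 2299 without both replicates 1, 413, 313, 1027 and 2596 under DESeq2, and 0, 136, 0 and 0 with the compared libraries alone. Leaving out 1 library gave 4 to 2705, 4 to 14, 8 to 172 and 10 to 7239. In WT neurites against soma, fitting the compared libraries alone gave 1 member in Ctrl and 0 in KCl, and leaving out 1 library gave 0 to 1 in both. DESeq2, RLE scaling and all 16 libraries gave 0 in KCl, and all 16 libraries gave 0 genes in both, against 3145 and 2211. For KCl against Ctrl, DESeq2, RLE scaling, the compared libraries alone and all 16 libraries gave 0 members in neurites, and leaving out 1 library gave 0 to 1 in both compartments. All 16 libraries gave 341 and 263 genes, against 1611 and 1109. The difference of enrichment in Ctrl gave 0 to 1. At a fraction of at least 0.1, 2 of the 12 DART-seq sites remained.

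The direction turned under some alternative for 12 of the 55 log2 values of members examined here. Members for which the text gives only library values between genotypes were not among the 55. Between genotypes these were Wtap in soma Ctrl (0.42 without both replicates 1, −1.03 to 0.43 with 1 library left out), Mettl14 in soma KCl (−0.037 without both replicates 1, −0.038 without the KCl insert 1, −0.028 to 0.91), Mettl14 in neurite KCl (−0.14, −0.11 to 1.72) and Mettl16 in soma KCl (−0.068 to 0.28). In WT neurites against soma they were Mettl14 in Ctrl (0.023 with the compared libraries alone, 0.040 with all 16, −0.080 to 0.077), Mettl16 in Ctrl (0.014 with all 16, −0.18 to 0.026), Mettl16 in KCl (−0.24 to 0.021) and Wtap in KCl (0.0032 with the compared libraries alone, −0.051 to 0.041). With KCl in WT neurites they were Mettl16 (−0.0024 to 0.19) and Virma (−0.16 to 0.047). In the difference of enrichment they were Wtap in Ctrl (−1.10 to 0.94) and Mettl3 in KCl (−0.13 without the KCl insert 1, −0.13 to 0.36). Apart from the construction of each alternative, the cause was not tested.

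A replicate block changed no member call at the fold thresholds, while 2 members in WT neurites against soma in Ctrl no longer passed the adjusted p, Mettl3 (0.0505) and Rbm15b (0.0501). With it, 50, 44, 49 and 116 genes passed between genotypes, 2714 and 1958 between WT neurites and soma, and 1503 and 1027 with KCl. Without the pairing by insert, the difference of enrichment had 296 and 150 genes instead of 962 and 424. Across genotypes the replicates share only a number.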
